A study of Homo sapiens with 24 samples.

Results

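Broad H3K4me3 regions were followed in human cardiomyocytes with and without knockdown of ZNF436, a gene of the zinc finger family. The rule kept regions that were 5000 bp or wider, held 50 or more H3K4me3 CPM (counts scaled to a library total of 1000000) and held under 10 H3K9me3 CPM, each averaged over the 3 control libraries of the mark. It kept 878 of the 153244 regions counted. These 878 made up 0.573% of all regions and 3.41% of their total length. Width, H3K4me3 and H3K9me3 in control cells chose the members, so their values in control cells are given below as a description.

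The libraries were made by CUT&Tag, in which an antibody against a histone mark guides a tagging enzyme to the chromatin that carries it. The knockdown group was day 15 ventricular-like cardiomyocytes with ZNF436 knockdown, and the control group was day 15 cells labelled control. Both came from H9, an established human embryonic stem cell line, by the same ventricular differentiation, and 100000 cells went into each sample. The sources used here do not say by which means ZNF436 was knocked down. H3K4me3, H3K27ac, H3K4me1 and H3K9me3 were each profiled in 3 knockdown and 3 control libraries.

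H3K4me3 marks the starts of active and poised genes. At most promoters it covers a short stretch around the start, and in many cell types the widest stretches lie at genes tied to the identity of the cell. H3K27ac marks active promoters and enhancers, H3K4me1 marks enhancers and the shoulders of promoters, and H3K9me3 marks silenced chromatin, to which zinc finger proteins with a KRAB domain recruit repressors. No gene annotation of the hg19 build used by the files was at hand, so the regions are given by position (hg19, counted from 1), no gene is assigned to them, and whether each holds a transcription start was not checked. Neither the cardiac identity of the cells nor the level of ZNF436 was checked here.

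Total counts ranged from 11023905 to 13933927 per library in the H3K4me3 set, from 2955710 to 3681687 in the H3K27ac set, between 3920283 and 4936265 in the H3K4me1 set and between 2103185 and 2880412 in the H3K9me3 set. The labels do not say that the replicates were separate cultures, so the p-values below measure the spread between libraries, which may be technical. Control libraries differed more from each other than knockdown libraries did at these regions. For H3K4me3, the coefficient of variation over 3 libraries had a median of 4.69% in knockdown and 6.90% in control cells, and it passed 25% at 1 region in knockdown and at 50 regions in control cells. Control replicates 2 and 3 were the least alike in H3K4me3, with a Spearman rho of 0.904 over the 878 regions, against 0.975 or more for each pair of knockdown libraries.

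The broad regions were a small part of all regions by number and held a larger part of the H3K4me3 counts, which the limit on H3K4me3 favours. Among regions that met this limit, their part by number was 11.0%. Of the 7946 regions with 50 or more H3K4me3 CPM, 948 were 5000 bp or wider, and the H3K9me3 limit left out 70 of these. The median width of the 878 members was 6150 bp, from 5001 to 17343 bp, and 61 were 10 kb or wider. They held between 12.8% and 12.99% of all H3K4me3 counts in knockdown libraries and between 12.7% and 12.9% in control libraries. For comparison, 6926 narrower regions met the same limits on both marks, with a median width of 2896 bp.

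**Figure D1:**
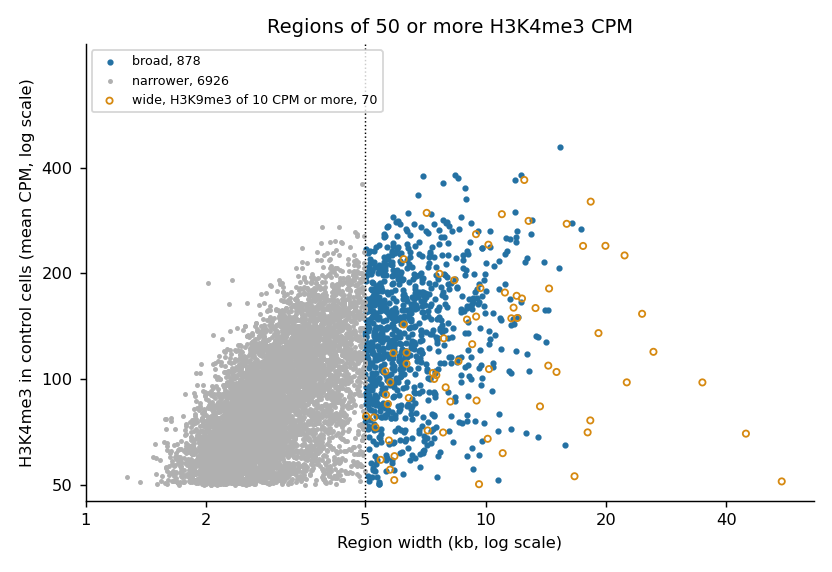
Width of each region (x axis, kb, log scale) against its mean H3K4me3 level over 3 control libraries (y axis, CPM, log scale). Blue points are the 878 broad regions, grey points the 6926 narrower ones and orange circles the 70 wide regions left out for H3K9me3; the dotted line marks 5 kb.

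The limits of the rule fell within a continuous range. Just inside the width limit were chr16:11031987-11036987 (5001 bp) and chr13:27742127-27747130 (5004 bp), and just outside were chr3:66020986-66025983 and chr18:33876292-33881289 (4998 bp each). Just inside the H3K4me3 limit were chr6:99278778-99284198 at 50.1 CPM and chr11:16943260-16948669 at 50.2 CPM, and just outside were chr12:110151161-110156554 at 49.5 CPM and chr11:118487828-118494522 at 48.8 CPM. Just inside the H3K9me3 limit were chr11:75268143-75277849 at 9.97 CPM and chr3:48589402-48599837 at 9.74 CPM, and just outside were chr10:88122439-88127696 at 10.04 CPM and chr17:2295466-2306449 at 10.05 CPM.

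Membership depended on the libraries used. Control replicates 1, 2 and 3 alone chose 874, 798 and 884 regions, of which 846, 784 and 845 were shared with the 878, and 744 of the 878 were chosen by each of the 3. With the knockdown libraries in place of the controls, the same limits chose 797 regions, of which 767 were shared with the 878. Of the 111 regions chosen in control cells only, 101 had 10 or more H3K9me3 CPM and 10 had under 50 H3K4me3 CPM in knockdown cells. Of the 30 chosen in knockdown cells only, 22 had under 50 H3K4me3 CPM and 9 had 10 or more H3K9me3 CPM in control cells, and these counts overlap. The 878 were chosen for low H3K9me3 in control cells, so passing that limit in other libraries can follow from the rule.

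The broad regions lay on every chromosome except Y, where the narrower class had 0 regions too. They made up between 8.12% (chromosome 14) and 13.9% (chromosome 17) of the broad and narrower H3K4me3 regions of a chromosome, against 11.3% overall. Some neighboured each other: 4 adjacent pairs lay within 1 kb, 14 within 10 kb and 80 within 100 kb. The closest pair was chr17:38464856-38471323 and chr17:38471632-38480890, with 308 bp between them. Such pairs are not independent regions.

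The list of regions was the same for all 4 marks, so the width of a region is not the width of its H3K4me3. The 10 widest members show this. The widest, chr17:79358867-79376209 (17343 bp), held 247, 259 and 246 H3K4me3 CPM in knockdown libraries and 290, 276 and 240 CPM in control libraries, and it had 15.5 H3K4me3 CPM per kb and 10.1 H3K4me1 CPM per kb in control cells. The third widest, chr11:75048173-75063949 (15777 bp), had only 4.12 H3K4me3 CPM per kb but 15.0 H3K4me1 CPM per kb in control cells. At chr7:5456233-5471571 (15339 bp) the balance was the other way, with 29.9 H3K4me3 CPM per kb and 3.17 H3K4me1 CPM per kb. Control levels per kb over the 10 widest spanned 4.12 to 29.9 for H3K4me3, 3.17 to 15.0 for H3K4me1 and 7.46 to 24.6 for H3K27ac.

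chr7:5456233-5471571 also had the highest H3K4me3 of all members, 446, 439 and 422 CPM in knockdown libraries and 459, 474 and 444 CPM in control libraries. The next were chr7:104650392-104658797, chr17:7736516-7748762 and chr15:75742166-75749147, with control means between 380 and 381 CPM. The 10 members with the highest control H3K4me3 had between 331 and 436 CPM in knockdown cells and between 327 and 459 CPM in control cells, and none of them passed the test of a difference (smallest adjusted p = 0.677, edgeR). Their H3K27ac in control cells ran from 94.2 to 378 CPM and their H3K4me1 from 14.0 to 78.9 CPM, so members alike in H3K4me3 differed several-fold in the other marks.

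Across the 878 regions, the control means ran from 50.1 to 459 CPM for H3K4me3 with a median of 137. They ran from 6.25 to 378 CPM for H3K27ac with a median of 65.4, and from 4.48 to 250 CPM for H3K4me1 with a median of 37.2. H3K9me3 was low by the rule, with a median of 3.90 CPM. H3K9me3 levels of single regions were poorly repeated: the Spearman rho between control libraries over the members was between 0.235 and 0.292, against 0.904 to 0.952 for H3K4me3.

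Per kb, the broad regions were poorer in H3K4me3 and richer in H3K4me1 and H3K27ac than the narrower ones. Both classes met the same limit on total H3K4me3, so a narrower region needed more H3K4me3 per kb to be kept. The lower H3K4me3 per kb of the broad regions can therefore follow from the rule. The ratios below compare all regions of each class, without matching them on H3K4me3 per kb. H3K4me3 and H3K4me1 per kb ran against each other in control cells (Spearman rho -0.60 in broad and -0.23 in narrower regions). The H3K4me1 ratio is therefore not independent of the rule. The median H3K4me1 level over the broad regions was 5.85, 6.003 and 6.16 CPM per kb in knockdown libraries and 5.98, 5.83 and 5.74 in control libraries. Over the narrower regions it was 3.30, 3.04 and 3.10 CPM per kb in knockdown libraries and 2.76, 2.85 and 2.79 in control libraries. The ratio of broad to narrower, taken within a library, was 1.998-fold on average (log2 1.00, SD 0.10 over 6 libraries) and above 1 in 6 of 6 libraries. The exact two-sided sign-flip permutation test over libraries gave p = 0.03125, the smallest that 6 libraries allow. The 6 libraries share 1 list of regions, and how its widths were set is not stated. Width also divides the levels, so this p speaks only to agreement between libraries on that list.

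H3K27ac differed less between broad and narrower regions. The median over broad regions was 11.4, 10.8 and 10.8 CPM per kb in knockdown libraries and 11.4, 9.29 and 10.3 in control libraries. Over narrower regions it was 9.06, 8.53 and 8.44 CPM per kb in knockdown libraries and 9.25, 8.12 and 8.19 in control libraries. The ratio was 1.24-fold (log2 0.31, SD 0.06 over 6 libraries), above 1 in 6 of 6, with the same exact permutation p of 0.03125 and the same limit on its meaning. For H3K4me3 the ratio was 0.713-fold, given without a test because the rule used that mark. The ratio for H3K9me3, which the rule also used, was 1.03-fold and above 1 in 4 of 6 libraries, likewise without a test. It was 1.07, 1.08 and 1.08 in knockdown libraries and 0.908, 0.972 and 1.12 in control libraries.

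Levels per kb of H3K4me3 and H3K4me1 also differed with width within the broad class. In control cells, the median H3K4me3 was 23.7, 20.3, 17.1 and 13.6 CPM per kb in regions of 5 to 6 kb (400 regions), 6 to 8 kb (317), 8 to 10 kb (100) and 10 kb or wider (61). H3K4me1 in the same order was 4.93, 6.31, 7.99 and 10.7 CPM per kb, and H3K27ac was 9.90, 10.1, 10.5 and 12.7 CPM per kb. The first 3 of the H3K27ac values differed by less than their SD over libraries (0.783 to 1.26). Over the 878 members, width had a Spearman rho of 0.07 with H3K27ac per kb, 0.33 with H3K4me1 per kb and -0.31 with H3K4me3 per kb. H3K9me3 stayed between 0.550 and 0.561 CPM per kb. Levels per kb of H3K4me3 and H3K4me1 ran against each other over the members (Spearman rho -0.60 over 878 regions, against -0.23 over the 6926 narrower regions). These correlations are descriptions: the points come from the same libraries and share the region width. The limit on total H3K4me3 also let wider regions in at lower H3K4me3 per kb. The fall of H3K4me3 per kb with width can therefore follow from the rule, and the rise of H3K4me1 per kb is not independent of it.

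**Figure D2:**
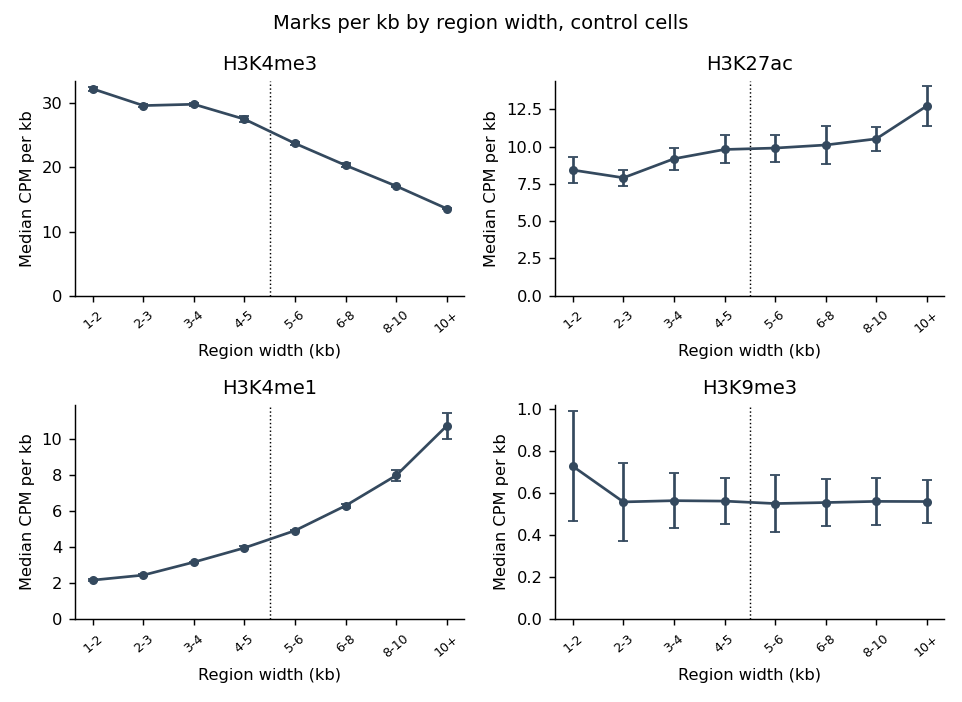
Median level per kb of each mark (y axis, CPM per kb) by region width (x axis, kb) in control cells, for narrower regions left of the dotted line and broad regions right of it; points are means and bars SD over 3 libraries. H3K4me3 per kb falls to 13.6 in the widest class while H3K4me1 per kb reaches 10.7, and H3K9me3 per kb is level across the broad classes. The limit on total H3K4me3 let wider regions in at lower H3K4me3 per kb.

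Other counted regions often lay close to the broad regions. Another counted region lay within 5 kb of 722 of the 878 broad regions (82.2%), against 53.1% of the narrower ones. In these flanking regions the median H3K4me1 was 8.20 ± 0.345 CPM per kb in knockdown and 8.33 ± 0.388 in control cells beside broad regions, and 7.11 ± 0.281 and 6.61 ± 0.587 in knockdown and control cells beside narrower ones (SD, n = 3). H3K27ac in the flanks of broad regions was 5.42 ± 0.214 CPM per kb in knockdown and 5.82 ± 0.127 in control cells. In the flanks of narrower regions it was 4.49 ± 0.179 in knockdown and 4.70 ± 0.118 in control cells. H3K4me3 in the flanks of broad regions was 0.688 ± 0.0593 CPM per kb in knockdown and 0.681 ± 0.0123 in control cells. Beside narrower regions H3K4me3 was 0.771 ± 0.0848 in knockdown and 0.779 ± 0.0150 in control cells. The H3K4me3 level was kept low in both classes by leaving out the flanks richest in H3K4me3. Only counted regions served as flanks, so surroundings outside the list were not measured.

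Ranked by control H3K27ac per kb, the broad regions lowest in it still carried H3K4me3. The 88 members with the lowest control H3K27ac per kb had a median of 3.24 ± 0.263 H3K27ac CPM per kb in control cells, against 21.4 ± 3.20 in the 88 with the highest (SD, n = 3). The same control values made the ranking, so this difference in H3K27ac is set by it. In the 88 with the lowest H3K27ac, H3K4me3 was 17.9 ± 0.466 CPM per kb and H3K4me1 was 4.65 ± 0.154 CPM per kb. The 88 with the highest H3K27ac had 27.5 ± 0.535 and 5.43 ± 0.663 CPM per kb. At chr4:134067018-134074957 (7940 bp), H3K27ac was 6.63, 6.43 and 9.78 CPM in knockdown libraries and 4.70, 8.21 and 13.01 CPM in control libraries. Its H3K4me3 was 211, 186 and 190 CPM in knockdown libraries and 178, 153 and 183 CPM in control libraries. H3K4me1 there was 67.4 ± 8.40 CPM in knockdown and 61.9 ± 1.40 CPM in control cells (SD, n = 3), above the median of the members.

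The other 4 members with the lowest H3K27ac per kb were chr10:7449065-7455448, chr6:99278778-99284198, chr2:200320351-200325408 and chr12:26274618-26279870. Their H3K27ac was between 4.62 and 9.76 CPM in knockdown and between 6.25 and 7.86 CPM in control cells, while their H3K4me3 was between 50.1 and 86.9 CPM in control cells. At the other end, the highest H3K27ac per kb was at chr1:144990921-144997270 (6350 bp), with 316, 276 and 325 CPM in knockdown libraries and 236, 111 and 328 CPM in control libraries. Its H3K4me3 was 106, 38.5 and 201 CPM in control libraries, so the control value of this region rests on libraries that differed widely. The next, chr7:5567284-5573951, had 220 ± 9.81 H3K27ac CPM in knockdown and 219 ± 50.6 CPM in control cells (SD, n = 3).

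The H3K4me3 of most broad regions in knockdown cells was close to the control level, and a few regions were called different. All 878 were among the 26773 regions tested for H3K4me3 with edgeR's quasi-likelihood test, and a region was called at a Benjamini-Hochberg adjusted p under 0.05 over all regions tested. H3K4me3 was called higher in knockdown cells at 11 members (1.25%, against 0.374% of all tested regions) and lower at 6 (0.683%, against 0.187%). Both directions together made 17 members (1.94%, against 0.56% of all tested regions). In 96 members (10.9%) the 3 knockdown libraries lay above the 3 controls (8.49% of all tested regions did). In 79 members (9%) they lay below them (7.74%). These shares are set beside the counts without a reading, because the rule used the control libraries. The median log2 fold change of the members was 0.006, against -0.007 over all tested regions, and 2 members differed by 2-fold or more. These were chr6:127437365-127444343, described below, and chr2:237475965-237483577, named here after its values were seen, which averaged 23.3 CPM in knockdown and 60.2 CPM in control cells and did not pass (log2 -1.37, adjusted p = 0.497, edgeR).

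The number of calls rested on single libraries. It was 78 without control replicate 3, 7 without control replicate 1, 4 without knockdown replicate 1 and 2 without knockdown replicate 3. When control replicate 3 alone chose the members and the fold was taken against the other 2 controls, 81 regions were called, and 6 when control replicate 1 chose them. Of the 17 calls, 16 are named below and 1 increase is not. Of the 16 named, 14 were lost without knockdown replicate 3, 12 without knockdown replicate 1, 11 without control replicate 1, 5 without knockdown replicate 2 and 3 without control replicate 2. Only chr6:127437365-127444343 and chr1:29447117-29452638 passed under each of the 13 other settings of the test, with adjusted p up to 3.87e-06 and 0.0411.

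The largest called rise was at chr6:127437365-127444343 (6979 bp). Its H3K4me3 was 178, 169 and 198 CPM in knockdown libraries, against 74.0, 80.1 and 79.2 CPM in control libraries, so all knockdown libraries lay above all controls. This was a rise of 1.23 ± 0.07 (SE) on the log2 scale, and edgeR gave an adjusted p of 4.67e-08. H3K27ac at the same region was 66.3, 72.1 and 86.9 CPM in knockdown libraries, against 10.04, 9.86 and 22.8 CPM in control libraries, a log2 fold change of 2.41 ± 0.33 (SE; adjusted p = 0.00957, edgeR). H3K4me1 there was 34.1 ± 1.18 CPM in knockdown and 29.8 ± 2.32 CPM in control cells (SD, n = 3), which did not pass (adjusted p = 0.832, edgeR).

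At chr1:29447117-29452638 (5522 bp), H3K4me3 was 179, 188 and 192 CPM in knockdown libraries, against 142, 135 and 138 CPM in control libraries (log2 0.44 ± 0.06 SE, adjusted p = 0.00162, edgeR). H3K27ac was 110, 101 and 102 CPM in knockdown libraries, against 67.1, 50.3 and 51.1 CPM in control libraries; the groups did not overlap, and the adjusted p was 0.123 by edgeR. At chr3:128204543-128209771 (5229 bp), H3K4me3 rose to 93.6, 71.7 and 82.4 CPM in knockdown libraries, against 52.8, 62.0 and 50.6 CPM in control libraries (log2 0.59 ± 0.11 SE, adjusted p = 0.0183, edgeR). H3K27ac at that region was 9.44 ± 2.26 CPM in knockdown and 9.78 ± 1.86 CPM in control cells (SD, n = 3), near the lowest among the members.

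Increases of smaller size were called at chr20:55834938-55842637, chr11:75915700-75922655, chr6:36643772-36649052, chrX:39952153-39959055, chr14:42072630-42079561, chr1:218517419-218525658 and chr3:46917480-46927303. Their log2 fold changes lay between 0.32 and 0.43, with adjusted p between 0.0130 and 0.0365 by edgeR, and in each the knockdown libraries lay above all controls. At chr1:218517419-218525658, H3K4me3 was 170, 170 and 190 CPM in knockdown libraries, against 122, 124 and 150 CPM in control libraries. At chrX:39952153-39959055 it was 181, 167 and 180 CPM in knockdown libraries, against 137, 125 and 151 CPM in control libraries. In both regions control replicate 3 was the control closest to the knockdown libraries.

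Among the called decreases, chr4:151499859-151506019 (6161 bp) had the largest. Its H3K4me3 was 50.3, 34.7 and 42.3 CPM in knockdown libraries, against 88.1, 94.2 and 70.0 CPM in control libraries, a log2 fold change of -0.98 ± 0.14 (SE; adjusted p = 0.0142, edgeR). H3K27ac was 12.7, 8.12 and 9.23 CPM in knockdown libraries, against 81.9, 52.2 and 26.7 CPM in control libraries, a log2 fold change of -2.39 ± 0.38 (SE; adjusted p = 0.0367, edgeR). H3K4me1 was 54.7 ± 1.58 CPM in knockdown and 45.1 ± 6.30 CPM in control cells (SD, n = 3), and did not pass (adjusted p = 0.682, edgeR). The control libraries spread over 3-fold in H3K27ac here, with replicate 3 the lowest.

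At chr20:14313235-14318582 (5348 bp), H3K4me3 fell to 54.2, 62.8 and 55.3 CPM in knockdown libraries, against 90.9, 99.8 and 76.0 CPM in control libraries (log2 -0.62 ± 0.10 SE, adjusted p = 0.00529, edgeR). At chr9:14905032-14911205 (6174 bp) it fell to 43.7, 42.0 and 34.2 CPM in knockdown libraries, against 66.8, 63.5 and 55.7 CPM in control libraries (log2 -0.63 ± 0.11 SE, adjusted p = 0.0129, edgeR). At chr2:43444595-43455881 (11287 bp) it fell to 169, 192 and 159 CPM in knockdown libraries, against 231, 249 and 214 CPM in control libraries (log2 -0.41 ± 0.07 SE, adjusted p = 0.0142, edgeR). The last of these is among the wider members and held 190 ± 13.6 H3K27ac CPM in knockdown and 208 ± 29.1 CPM in control cells (SD, n = 3). The remaining called decreases, chr20:30306588-30312084 and chr1:39872136-39877752, had log2 fold changes of -0.37 and -0.41 with adjusted p of 0.0183 and 0.0328 by edgeR.

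**Figure D3:**
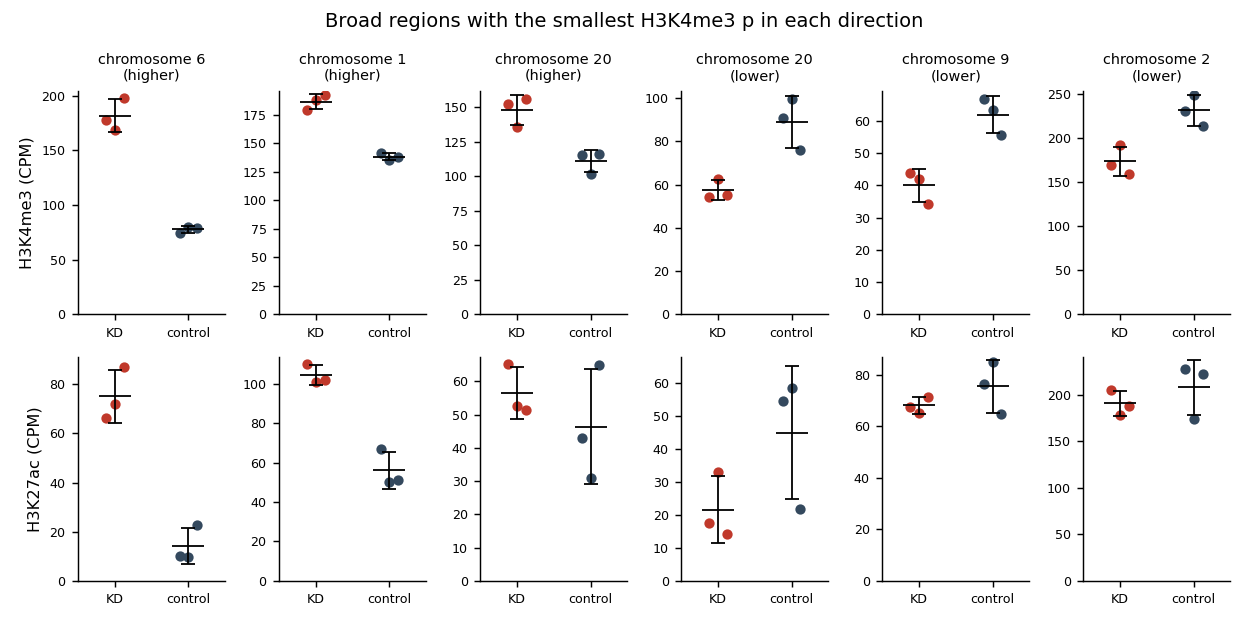
H3K4me3 (top) and H3K27ac (bottom) in CPM for the broad regions with the smallest H3K4me3 p, 3 higher and 3 lower in the knockdown; points are libraries, with knockdown left of control, and lines are means with SD (n = 3 each). In the top row no knockdown library overlaps a control library; in the bottom row the groups are apart in the chromosome 6 and chromosome 1 regions and overlap in the others.

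H3K27ac at the called regions mostly lay on the same side as H3K4me3. Of the 11 regions with raised H3K4me3, 10 had a positive H3K27ac log2 fold change, with a median of 0.53. Of the 6 with lowered H3K4me3, 6 had a negative one, with a median of -0.39. Over all 878 members, 504 had a positive H3K27ac log2 fold change and 374 a negative one. In H3K4me1, 9 of the 11 raised regions and 4 of the 6 lowered regions had a negative log2 fold change, as did 535 of all 878 members. No p is given for these counts, because the regions were chosen on another mark of the same cells.

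**Figure D4:**
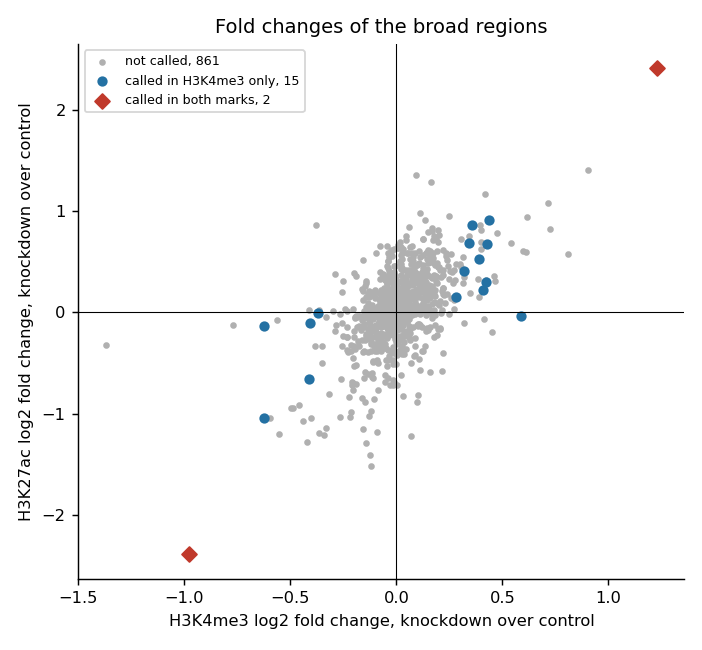
H3K4me3 log2 fold change (x axis) against H3K27ac log2 fold change (y axis), both knockdown over control, for the 878 broad regions. Blue points are the 15 called in H3K4me3 only and red diamonds the 2 called in both marks, at 1.23 and -0.98 on the x axis.

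In H3K27ac, which the rule did not use, the 2 regions just described were the only members called among 61484 regions tested. That is 1 higher, where 0.00813% of all tested regions were called higher, and 1 lower, where 0.00325% were (0.0114% in either direction). At an unadjusted p under 0.05, 84 members were higher (9.57%, against 5.91% of all tested regions) and 44 lower (5.01%, against 5.35%). The groups did not overlap at 123 members higher in the knockdown (14.0%, against 9.14% of all tested regions) and at 62 lower (7.06%, against 8.37%). The median log2 fold change was 0.06 over the members and -0.05 over all regions tested, and the 5th and 95th percentiles of the members were -0.66 and 0.64. The count was 43 without control replicate 3, 4 without control replicate 2, and 0 without control replicate 1 or any 1 of the knockdown replicates. It was 16 with DESeq2, 14 with limma-voom, 10 with no filter on low counts, and 5 with a stricter filter.

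Among members that did not pass, the smallest H3K27ac p-values came from 4 regions. At chr8:23559077-23569485 (10409 bp), H3K27ac was 194, 175 and 206 CPM in knockdown libraries, against 52.4, 52.9 and 113 CPM in control libraries (log2 1.41 ± 0.26 SE, adjusted p = 0.0591, edgeR). H3K4me3 at that region was 287, 276 and 303 CPM in knockdown libraries, against 92.9, 163 and 208 CPM in control libraries, with an adjusted p of 0.485 by edgeR; the controls spread over more than 2-fold. At chr20:6030968-6037501, H3K27ac was 223, 150 and 201 CPM in knockdown libraries, against 63.99, 91.3 and 119 CPM in control libraries (adjusted p = 0.0997, edgeR).

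On the lower side, H3K27ac at chr1:200859858-200869267 (9410 bp) was 53.3, 52.8 and 47.5 CPM in knockdown libraries, against 157, 119 and 101 CPM in control libraries (log2 -1.28 ± 0.23 SE, adjusted p = 0.0529, edgeR). H3K4me1 at the same region was 71.9, 92.7 and 85.5 CPM in knockdown libraries, against 124, 125 and 112 CPM in control libraries (adjusted p = 0.240, edgeR), so both marks were lower in each knockdown library than in any control. At chr6:114175557-114182125, H3K27ac was 16.0, 19.96 and 17.9 CPM in knockdown libraries, against 59.3, 64.4 and 32.5 CPM in control libraries (adjusted p = 0.0732, edgeR). Its H3K4me3 was 146 ± 7.59 CPM in knockdown and 159 ± 19.3 CPM in control cells (SD, n = 3).

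In H3K4me1, no member was called among 85815 regions tested, and 0% of all regions were called. DESeq2 and limma-voom called 0 members too, while edgeR called 16 without control replicate 3. At an unadjusted p under 0.05, 18 members were higher (2.05%, against 4.91% of all tested regions) and 41 lower (4.67%, against 5.58%). The groups did not overlap at 53 members higher in the knockdown (6.04%, against 7.9% of all tested regions) and at 87 lower (9.91%, against 7.68%). The median log2 fold change was -0.06 over the members and -0.03 over all regions tested. The smallest p was at chr6:17280150-17290412, with 32.4, 31.3 and 39.3 CPM in knockdown libraries, against 13.6, 12.8 and 23.5 CPM in control libraries (adjusted p = 0.167, edgeR). Next on the higher side were chr9:2620554-2626447 and chr3:135911268-135916839, and on the lower side chr16:3061740-3068958, chr1:200859858-200869267 and chr15:96865095-96872075, none of which passed.

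H3K9me3 was low in the broad regions of both groups, and its share of the library was higher in the knockdown. The members held 0.589%, 0.614% and 0.469% of H3K9me3 counts in knockdown libraries, against 0.337%, 0.453% and 0.312% in control libraries, and the groups did not overlap. The rule kept regions with low H3K9me3 in the same control libraries, so this difference is a description. When the members were chosen on control replicate 1, the share was 0.595%, 0.625% and 0.475% in knockdown libraries, against 0.474% and 0.325% in the other controls. Chosen on control replicate 2, the knockdown libraries again lay above the other controls, and chosen on control replicate 3 they overlapped, with a lowest knockdown share of 0.466% and a highest control share of 0.475%.

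Without the H3K9me3 limit, the selection rests on width and H3K4me3 alone. Over those 948 regions the median H3K9me3 level was 6.66, 6.39 and 4.86 CPM in knockdown libraries, against 3.55, 4.67 and 3.46 CPM in control libraries, a ratio of means of 1.53. The groups did not overlap, and the exact two-sided permutation test gave p = 0.1, the smallest that 3 libraries against 3 allow. Over the 6998 narrower regions, also without the H3K9me3 limit, the median was 2.85, 2.39 and 2.08 CPM in knockdown libraries, against 1.78, 1.87 and 1.46 CPM in control libraries, and the groups did not overlap either. The 6926 narrower regions that met the H3K9me3 limit, which also keeps their control level low, held 2.16%, 2.12% and 1.71% of H3K9me3 counts in knockdown libraries, against 1.44%, 1.78% and 1.13% in control libraries, and these shares overlapped. The share of counts in the top 1% of all regions was 47.1%, 46.4% and 49.9% in knockdown libraries, against 47.4%, 47.5% and 52.2% in control libraries. Whether a difference between libraries in counts outside H3K9me3 domains had a part in the result was not tested.

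**Figure D5:**
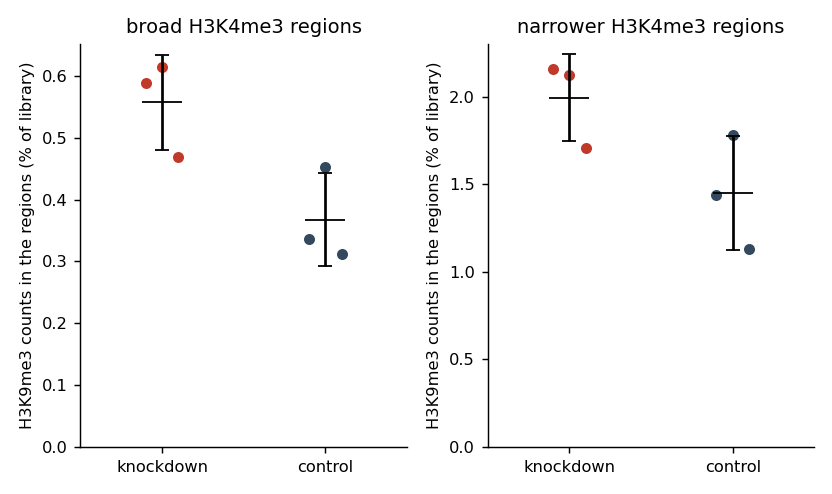
Share of all H3K9me3 counts of a library (y axis, percent) that fell in the 878 broad regions (left panel) and the 6926 narrower regions (right panel), both chosen with under 10 H3K9me3 CPM in control cells. Points are libraries, knockdown left of control, and lines are means with SD (n = 3 each); the groups are apart in the left panel and overlap in the right.

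Single regions carried few H3K9me3 counts, and 560 of the 878 passed the filter on low counts; the other 318 were not tested. None was called among 30565 regions tested, where 0.00654% of all were called higher and 0.00327% lower (0.00982% in either direction), and DESeq2 and limma-voom called 0 members too. At an unadjusted p under 0.05, 112 members were higher (3.99% of all tested regions were) and 0 lower (4.32% were). A member with low control counts could pass the filter through its knockdown counts, so these counts support nothing. The smallest p-values were at chr16:85586461-85592324, chr6:10408516-10418417 and chr20:55964865-55978365 (adjusted p = 0.133 each, edgeR). At chr20:55964865-55978365, H3K9me3 was 18.1, 24.3 and 15.6 CPM in knockdown libraries, against 4.44, 6.06 and 6.91 CPM in control libraries. At chr6:10408516-10418417 it was 21.9, 24.7 and 21.5 CPM in knockdown libraries, against 10.2, 5.60 and 7.28 CPM in control libraries, while H3K4me3 in the controls there was 46.6, 144 and 34.2 CPM. At chr16:85586461-85592324 the 3 knockdown libraries held 56 counts in all and the 3 control libraries 2, which may be fewer fragments if both mates of a read pair were counted.

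Toward lower H3K9me3, the smallest p-values were at chr11:75268143-75277849, chr6:119664907-119672552 and chr1:15849521-15854546, none of which passed. The first held 3.804, 4.79 and 4.86 CPM in knockdown libraries, against 8.88, 11.2 and 9.82 CPM in control libraries (adjusted p = 0.625, edgeR), and it is also the member closest to the H3K9me3 limit of the rule.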

How the data were processed

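CUT&Tag for H3K4me3, H3K27ac, H3K4me1 and H3K9me3 was done in day 15 H9-derived cardiomyocytes, with 3 knockdown and 3 control libraries per mark, 24 in all, grouped by their titles. The deposited files give unnormalized whole-number counts of reads for 153244 regions, in 1 list common to the 4 marks. Build hg19 and the tools deepTools 3.5.4, bedtools 2.30.0 and Bowtie2 2.4.5 come from the submitters' processing notes, which assign them no roles. Even numbers made up 51.9% to 65.9% of the deposited counts above 0 in each library, so both mates of a pair may have been counted; errors based on counts would then be too small. The making of the regions and the read filters are not stated in the labels.

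CPM was the count times 1000000 over the library total; levels per kb divide by region width. Each mark was fitted alone over all regions with edgeR 4.0.16 (R 4.3.3): filterByExpr, TMM scaling, robust quasi-likelihood fit, group as the only term, Benjamini-Hochberg adjustment. Standard errors were obtained by dividing the absolute log2 fold change by the square root of F. Alternatives used DESeq2 1.42.0, limma 3.58.1 (voom), other scalings, filters, limits and left-out libraries. Scripts were tested on simulated data. No libraries agreed within sampling noise (chi-square per degree of freedom 3.06 or more within groups, above the 2 that counting each fragment 2 times would give), so none were merged.

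The members and lists were chosen with earlier results of these data known. Regions named are the 10 widest, the 10 highest in control H3K4me3, the 5 highest and 5 lowest in control H3K27ac per kb, up to 10 called per direction and mark whose groups did not overlap, the 3 smallest p per direction where fewer than 5 were called, and those beside the limits. Gene and marker lists could not be used without an hg19 annotation. Errors cover the spread between libraries.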

Additional observations from a re-analysis of the deposited data

How the results depend on the processing

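The number of broad regions was 1788 with a width limit of 4000 bp and 478 with 6000 bp. For H3K4me3, the 17 calls became 39 with no filter on low counts and 30 with DESeq2, between 2 and 78 with 1 library left out, and 6 or 81 when control replicate 1 or 3 chose the members. For H3K27ac, the 2 calls became 10 with no filter, 5 with the strict filter, 16 with DESeq2, 14 with limma-voom, between 0 and 43 with 1 library left out, and 0 or 47 when control replicate 1 or 3 chose the members. H3K4me1 calls ranged from 0 to 16 with 1 library left out and were 13 when control replicate 3 chose the members. H3K9me3 calls ranged from 0 to 1 with 1 library left out and were 1 when control replicate 1 chose the members. A control replicate that chose the members was also left out of the test. For H3K4me3, leaving out control replicate 1 or 3 with the 878 members kept gave 7 or 78 calls. The cause of these shifts was not tested. The log2 ratio of broad to narrower regions was 0.27 and 0.34 for H3K27ac in control libraries alone and knockdown libraries alone, and 1.06 and 0.93 for H3K4me1 (exact permutation p = 0.25, the smallest that 3 libraries allow). It was between 0.30 and 0.33 for H3K27ac and between 0.97 and 1.03 for H3K4me1 with 1 library left out (exact permutation p = 0.0625, the smallest that 5 libraries allow). These p-values too speak only to agreement between libraries on the shared list of regions.

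Deviations of same-numbered libraries from their group means correlated between -0.099 and 0.066, and those of different-numbered libraries between -0.083 and 0.099. The labels do not say whether same-numbered libraries shared a culture or day, and these values cannot settle it. With the replicate block, 18 members were called in H3K4me3, 5 in H3K27ac, 0 in H3K4me1 and 0 in H3K9me3. Of the 16 named H3K4me3 calls, 3 missed the threshold under the block, at chr3:128204543-128209771 (adjusted p = 0.0552), chr14:42072630-42079561 (0.0568) and chr3:46917480-46927303 (0.0587), by edgeR. Dropping the H3K9me3 limit, an alternative chosen after seeing the data, gave 19 H3K4me3 and 3 H3K27ac calls over 948 regions. Of the values of single named regions under the alternatives, 346 kept their side of the threshold, 56 lost it, 30 gained it and 0 changed direction. Median log2 fold changes moved by less than the spread between libraries under each alternative run. In H3K9me3, which the rule required to be low and whose libraries had the lowest totals, 318 members had too few counts to test.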

Other observations

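The 70 wide H3K4me3 regions left out for their H3K9me3 had between 10.04 and 44252 H3K9me3 CPM in control cells, with a median of 15.4 CPM, and 47 of them lay under 20 CPM. As a group they held 15.7%, 15.3% and 16.1% of H3K9me3 counts in knockdown libraries, against 13.3%, 14.4% and 16.1% in control libraries. Their median H3K27ac was 128, 122 and 142 CPM in knockdown libraries, against 138, 90.5 and 128 CPM in control libraries.

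Among these 70 was chr1:23686304-23698054 (11751 bp), the region with the smallest H3K4me3 p of all regions tested. Its H3K4me3 was 11.2, 10.01 and 9.39 CPM in knockdown libraries, against 152, 170 and 157 CPM in control libraries (log2 fold change -3.96 ± 0.10 SE, adjusted p = 1.41e-14, edgeR). Its H3K27ac was 27.7, 27.7 and 17.7 CPM in knockdown libraries, against 121, 87.4 and 99.9 CPM in control libraries (adjusted p = 0.00631, edgeR). Its H3K9me3 was 205 ± 13.7 CPM in knockdown and 133 ± 23.2 CPM in control cells (SD, n = 3; adjusted p = 0.0648, edgeR). This region was chosen after its values were seen. No gene was assigned to it, so whether it lies at ZNF436 itself was not checked.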
